A study of Mus musculus with 3530 samples.

Results

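Vip interneurons are inhibitory neurons of the cortex that make vasoactive intestinal peptide, and 471 of the 3530 sequenced cells of the mouse medial prefrontal cortex were assigned to them. A cell was taken as inhibitory where the CPM (reads of a gene scaled to a fixed total per cell) of Gad1 and Gad2, the enzymes of GABA synthesis, summed to more than those of the excitatory markers Slc17a7, Neurod2 and Neurod6, which held for 1189 cells. Each inhibitory cell was then given the type whose 3 markers had the highest mean z-score of log2(CPM + 1) over the inhibitory cells, provided that this mean was above 0. The Vip cells were thus chosen by the measured levels of Vip, Calb2 and Penk, and took 39.6% of the inhibitory cells and 13.3% of all cells. The same rule gave 242 Sncg cells (Sncg, Cnr1, Yjefn3), Ndnf cells (Ndnf, Cplx3, Hapln1) that made up 15.3% of the inhibitory cells, 151 Sst cells (Sst, Lypd6, Cort) and 110 Pvalb cells (Pvalb, Cox6a2, Crtac1), and left 33 cells without a type. A further 2341 cells were excitatory.

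All animals carried TRAP2 and Ai14. TRAP2 is an activity-dependent Cre recombinase expressed from the Fos locus that acts only while tamoxifen is present, and Ai14 is a tdTomato reporter that Cre switches on, so a cell active during labelling keeps the red protein. The 4 conditions of a contextual fear experiment were Fear-Recall, Fear-Only, Context-Only and Homecage, with 5 animals each, and the labels give no schedule, age or sex. Tissue was dissociated with papain and single cells were prepared with Smart-seq2, a plate method that reads whole transcripts. Cells of sets 2 to 4 were sorted into a pos or a neg gate, as their titles say, while sets 1 and 5 carry no gate and 1 plate of Homecage 3 is marked with both.

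Vip cells arise in the caudal ganglionic eminence of the embryo and sit mostly in the upper layers of the cortex. Their best known targets are other interneurons, above all Sst cells, so their firing lifts inhibition from pyramidal neurons. They carry the ionotropic serotonin receptor and nicotinic acetylcholine receptors, and they are commonly divided into a calretinin (Calb2) group, part of which makes acetylcholine, and a cholecystokinin (Cck) group.

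Members were found in 19 of the 20 animals, between 1 and 68 per animal, with none in Homecage 1, and the 15 animals with at least 10 members are used for levels and sums. A member held between 101833 and 3613607 reads (median 726711) and between 764 and 7992 detected genes (median 5158). Cells of the other 4 inhibitory types had medians of 869260 reads and 6118 genes, and excitatory cells 818903 reads and 7250 genes. The median number of genes per member was 3360 to 5700 in Fear-Only, 5079.5 to 5858.5 in Fear-Recall, 3186 to 5615.5 in Context-Only and 3160.5 to 5026 in Homecage, so it moves with condition and its part in the results was not tested. Replicates are animals throughout, and the p-values below measure the spread between these animals.

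The rule used Vip, so its level in members describes the choice and lends the label no support, and the type has a graded edge. A Vip level of 1000 CPM or more was reached by 463 members (98.3%), but also by 188 Sncg cells (77.7%), 63 Ndnf cells, 21 Pvalb cells, 18 Sst cells and 27 cells without a type. Members were 59.4% of the inhibitory cells at that level. The margin between the mean z-score of a member and that of its second type was at least 0.5 in 333 members, called clear members here. At the edge, 30 members lay within 0.1 of another type and 29 non-members within 0.1 of the Vip type. The 30 members just inside had median levels of 30459 CPM Vip, 65.4 CPM Calb2, 494 CPM Penk and 553 CPM Cck. The 29 cells just outside had 32779 CPM Vip, 17.8 CPM Calb2, 0 CPM Penk and 1978 CPM Cck. The type closest to a member was Sncg for 35.7% of members, Ndnf for 29.3%, Pvalb for 18.05% and Sst for 16.99%. With every cell thinned to 100000 reads, 461 of the 471 members were assigned again.

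Levels by type are described without a test, because the markers and the cells they sort are the same measurement. The Vip gene lies on chr10:5639218-5647617, plus strand (GRCm38, where GENCODE vM21 places the gene of that symbol), and 98.9% of members held a Vip read after thinning. Over the 15 animals the mean level in members was lowest at 21319 CPM, had a median of 29509.7 CPM and was highest at 37405 CPM. Sncg cells averaged 22382 CPM ± 7292 (SD, n = 12 animals), and their range overlapped that of the members. Ndnf cells averaged 8514 CPM, Pvalb cells 4998 CPM, Sst cells 3155 CPM and excitatory cells 14.5 CPM, and the lowest Vip cell animal stood above the highest animal of each of these. The 250 bases before the Vip start are shown because Vip is the transcript that defines the cells, with capitals marking the core of the cAMP response element (TGACG, or CGTCA on the other strand), through which CREB is known to switch Vip on. The sequence is from RefSeq (GRCm38.p6, chr10:5638968-5639217, plus strand).
Vip: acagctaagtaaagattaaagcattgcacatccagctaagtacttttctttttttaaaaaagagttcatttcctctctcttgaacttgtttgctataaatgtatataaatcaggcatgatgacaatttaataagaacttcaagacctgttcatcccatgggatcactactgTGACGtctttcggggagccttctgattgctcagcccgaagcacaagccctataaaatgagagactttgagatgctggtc
The motif has 1 match, starting 79 bases before the gene start, in a window of 38.4% G and C. It is found in 5836 of 32851 such windows of the genome (17.8%), and a match is a description of letters, not of a bound site.

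Calb2 and Penk, the other markers of the rule, differed more between members and Sncg cells than Vip did. The rule sorted cells on these genes, so the gaps are partly set by it and are given as a description. Calb2, the calcium buffer calretinin (chr8:110137502-110168210, minus strand), was lowest at 228 CPM, had a median of 429 CPM and was highest at 1149.8 CPM over the 15 animals, against a mean of 24.1 CPM in Sncg cells, 128 CPM in Sst cells, 69.04 CPM in Ndnf cells and 35.5 CPM in Pvalb cells. Penk, the precursor of the opioid enkephalins (chr4:4133531-4138819, minus strand), averaged 3167 CPM ± 1022 in members (range 1599 to 5383) and 83.2 CPM in Sncg cells, 413 CPM in Sst cells, 257 CPM in Ndnf cells and 101 CPM in Pvalb cells. No Vip cell animal came down to the level of a Sncg cell animal for Calb2. After thinning, a Calb2 read was held by 87.5% of members, 9.92% of Sncg cells and 0.513% of excitatory cells, and a Penk read by 82.2%, 7.44% and 10.6%. Excitatory cells should lack Calb2, so their share (median 818903 reads before thinning, against 726711 in members) gives the level of background for it.

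Among the neuropeptides that the rule did not use, Vip cells overlapped with Sncg cells for some and were far below or above them for others. Tac2, the precursor of neurokinin B, averaged 2766 CPM ± 942 in members and 4048 CPM ± 1962 in Sncg cells, and Crh, the precursor of corticotropin-releasing hormone, 739 CPM ± 297.4 and 562 CPM ± 393. Both pairs of ranges overlapped. Cck was 769 CPM ± 363 in members and 5491 CPM ± 1773 in Sncg cells, with no overlap between animals, and the excitatory level was 994 CPM. Npy was 180.6 CPM ± 246 in members against 2079 CPM in Sncg cells and 6194 CPM in Sst cells. Pnoc, the nociceptin precursor, was 467 CPM ± 163.1 against 981 CPM ± 227.2 in Sncg cells. Pthlh, which encodes a parathyroid hormone-like peptide, ran the other way, at 430 CPM ± 181.4 in members, 37.2 CPM in Sncg cells and 879 CPM in Pvalb cells. Igf1 was at a similar level in both, 657 CPM ± 305 in members and 590 CPM ± 236 in Sncg cells. Tac1, Grp and Nts held no read in the members. The plot of levels by type shows these genes side by side.

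Vip cells held the serotonin receptor Htr3a and nicotinic subunits, and the receptors for the Vip peptide were low. Htr3a, the ionotropic serotonin receptor subunit, was lowest at 400.3 CPM, had a median of 929 CPM and was highest at 1815 CPM over the 15 animals. It averaged 1883 CPM ± 477 in Sncg cells, 416 CPM in Ndnf cells, 111.6 CPM in Sst cells and 0.2 CPM in excitatory cells. The nicotinic subunit Chrnb2 averaged 115.2 CPM ± 76.5 in members and 113 CPM in Sncg cells, and Chrna4 49.3 CPM ± 29.5 and 67.7 CPM. Of the receptors for the Vip peptide, Vipr1 averaged 6.4 CPM ± 8.8 and Vipr2 4.5 CPM ± 14.8, while Adcyap1r1, the receptor for the related peptide PACAP, averaged 105 CPM ± 59.9. Gabrd, a GABA-A receptor subunit of extrasynaptic receptors, was 5.3 CPM in members and 272.5 CPM in Pvalb cells. The AMPA receptor subunit Gria2 averaged 383 CPM ± 110 against 197 CPM ± 49.2 in Sncg cells.

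Transcription factors of the caudal eminence were present in Vip cells, and those of the medial eminence were near 0. Prox1, which marks neurons of the caudal eminence, was lowest at 61.5 CPM and highest at 262 CPM in members, with a mean of 173.3 CPM ± 59.9, against 97.4 CPM ± 37.99 in Sncg cells and 9.6 CPM in Sst cells. Sp8 averaged 153.9 CPM ± 123.5, Nr2f2 139 CPM, Npas1 143.97 CPM ± 49.3 and Adarb2, an RNA-binding protein gene of the same lineage, 205.2 CPM ± 101. In Sncg cells these 4 genes stood at 262, 210.6, 329 and 266.5 CPM. Lhx6 and Sox6, which mark neurons of the medial eminence, were at 0.1 and 0.2 CPM in members, against 170.7 and 40.9 CPM in Sst cells and 151 and 21.6 CPM in Pvalb cells.

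The genes with the largest ratio of mean level in members to that in other inhibitory cells, among the 3645 genes at 50 CPM or more in members, were led by Ostf1 (ratio 16.4), Id3 (16.1), Penk (12.3), Calb2 (11.8) and Tpbg (11.2). Ostf1, an adaptor protein first described in osteoclasts, averaged 175 CPM ± 118.7 in members and 15.02 CPM in Sncg cells. Other genes among the 20 leading ones were the secreted ligands Wnt5b at 70.0 CPM ± 37.6 (Sncg cells 15.3 CPM) and Wnt7a at 67.2 CPM ± 47.6 (10.6 CPM) and the secreted inhibitor Sostdc1, with a ratio of 9.14. The list also held the transcriptional regulators Sall1 at 75.8 CPM ± 35.3 and Zbtb18 (ratio 4.20), the calcium sensors Hpcal1 at 200 CPM ± 49.5 and Caln1 at 496 CPM ± 158.6 (Sncg cells 63.02 CPM), and the synapse organiser Cbln4 at 101 CPM ± 103. Cbln4 differed most between animals, from 2.3 to 357 CPM. These ratios come from the cells as sorted by the rule and are given as a description.

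Members differed among themselves in calretinin and in the peptide genes beside Vip. After thinning, 323 members (68.6%, exact Clopper-Pearson 95% interval 64.2 to 72.7, counting error only) held reads of Vip, Calb2 and Penk together, 84 (17.8%) lacked Penk, 59 (12.5%) lacked Calb2 and 5 (1.06%) lacked Vip. The rule chose members on these 3 genes, so these shares are partly set by it. Calb2 without Cck was found in 225 members, Calb2 with Cck in 39.7% of members, Cck without Calb2 in 30 and neither in 29. A Cck read was held by 46.1% of members, below the 74.8% of excitatory cells, which are known to express Cck, and the 99.2% of Sncg cells. Tac2 and Penk were found together in 210 members. Over the 471 members, Cck and Tac2 had a Spearman rho of 0.69, positive in each of the 15 animals, Crh and Cxcl14 0.72 and Tac2 and Cxcl14 0.68. Calb2 had a rho of -0.40 with Crh and -0.35 with Cxcl14, the latter above 0 in none of the 15 animals, but only -0.21 with Cck, above 0 in 4 of the 15. Penk had -0.31 with Cck. Vip had 0.30 with Cck, -0.07 with Calb2 and -0.10 with Penk. The last 2 values are partly set by the choice of members on the mean of Vip, Calb2 and Penk, which lowers correlations among the 3, and they are not read further. The rule may also shape the other values with Vip, Calb2 or Penk. A member had to score higher on these 3 genes than on the markers of the other types, such as Cnr1. How far this goes was not tested. These correlations are across cells that share animals and libraries, and Calb2 also had 0.33 with the number of genes detected in a cell, Tac2 -0.22 and Cck -0.11. The scatter of members shows both pairs of genes.

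**Figure D1:**
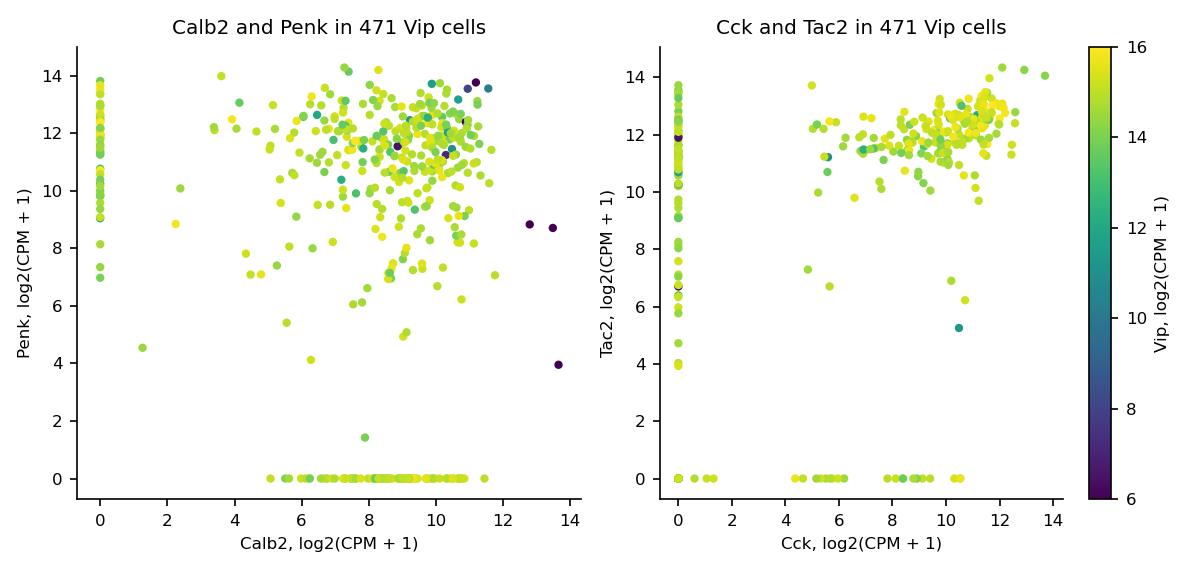
The 471 Vip cells as points by log2(CPM + 1) of Calb2 and Penk on the left and of Cck and Tac2 on the right, coloured by log2(CPM + 1) of Vip. Most cells hold both Calb2 and Penk, by which they were chosen together with Vip, and cells high in Cck tend to be high in Tac2 (Spearman rho 0.69).

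Genes whose levels followed that of Vip most closely over the 471 members were Pcp4l1 (Spearman rho 0.43, positive in 15 of 15 animals), Fxyd6 (0.42, 12 of 15), Igf1 (0.38, 14 of 15), Sp8 (0.38, 14 of 15), Serpine2 (0.36, 14 of 15) and Scg2 (0.35, 14 of 15), among the 3752 genes detected in enough members for the comparison. Fxyd6 regulates the sodium pump, and Scg2 is a granin of the dense-core vesicles that store peptides. Vip helped to choose the members, which may shape these correlations, and this was not tested.

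A small cholinergic share was present. Chat, the enzyme of acetylcholine synthesis, gave a read in 51 members after thinning (10.8%), in 3.31% of Sncg cells and in 0 of the excitatory cells, and 49 of the 51 also held Calb2 and 17 Cck. Of the members without a Chat read, 363 held Calb2 and 57 did not, and 200 held Cck and 220 did not. Members were chosen on Calb2, so its share is partly set by the rule. Chat had a Spearman rho of 0.09 with Calb2 (above 0 in 9 of 15 animals) and -0.10 with Cck (4 of 15). Its mean level was 46.9 CPM ± 53.6 over the 15 animals, lowest at 0, with a median of 27.6 CPM and a highest value of 177.6 CPM in Context-Only 5. The other Context-Only animal of that set, 5b, had 164 CPM, and the remaining 13 animals lay between 0 and 60.4 CPM. Slc18a3, which loads acetylcholine into vesicles, averaged 50.3 CPM ± 42.6 (Sncg cells 8.2 CPM), and Slc5a7, which takes up choline, 25.9 CPM ± 18.8 (Sncg cells 0.9 CPM).

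Vip cells made up a larger share of all pos cells than of all neg cells. In the pos gate their share of all cells was 16.7% in Fear-Recall 2, 16% in Fear-Recall 3, 20.7% in Fear-Only 2, 20.4% in Fear-Only 3, 13.1% in Context-Only 2, 21.9% in Context-Only 3, 11.6% in Context-Only 4 and 9.41% in Homecage 2. In the neg gate of the same animals it was 6.77%, 8.51%, 6.45%, 4.35%, 5.88%, 13.8%, 9.09% and 5.88%. Each animal was higher in pos, although the 2 ranges overlap between animals. The means were 16.2% ± 4.59 and 7.59% ± 2.93 (SD, n = 8), a difference of 8.64 percentage points (p = 0.0078 by an exact sign-flip test, two-sided, which cannot go lower with 8 animals).

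Among inhibitory cells alone the difference was smaller. Of the inhibitory cells, Vip cells were 41.4% ± 11.2 in pos and 38.5% ± 13.7 in neg (n = 8), higher in pos in 4 of 8 animals, and the difference of 2.94 points did not pass (exact sign-flip test, p = 0.609). It turned to -0.58 points without Fear-Only 3 and to -1.42 points with clear members only. The mean differences of the other types were 6.08 points for Sncg cells (higher in 6 of 8 animals), -5.78 for Ndnf cells (2 of 8), -3.41 for Sst cells (3 of 8) and -1.45 for Pvalb cells (2 of 8). The plot of shares by gate shows each animal as a line.

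**Figure D2:**
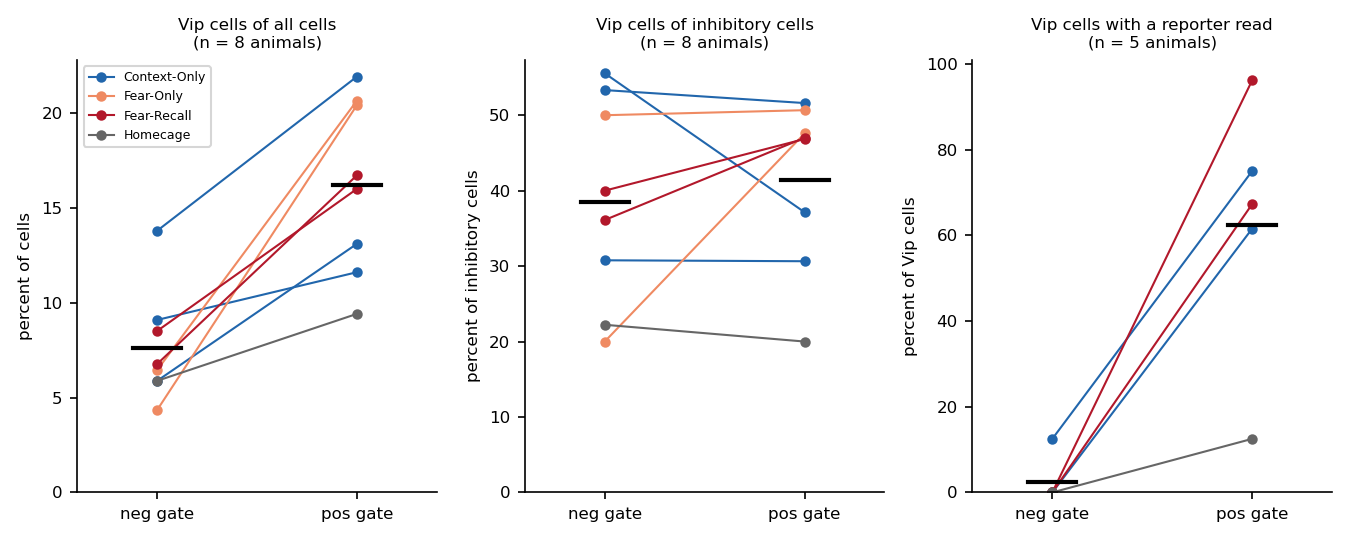
Percent of Vip cells among all cells and among inhibitory cells, and percent of Vip cells with a reporter read, in the neg and pos gates, with a line per animal (n = 8, 8 and 5) and a black line for the mean. The share of all cells is higher in pos in 8 of 8 animals, the share of inhibitory cells in 4 of 8, and the reporter share in 5 of 5.

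Between Fear-Recall and Context-Only, the Vip share of pos inhibitory cells differed by less than the spread between the Context-Only animals. It was 47.01%, 46.8% and 43.8% in the 3 Fear-Recall animals and 30.6%, 51.6% and 37.1% in the 3 Context-Only animals, with means of 45.9% ± 1.84 and 39.8% ± 10.7 (p = 0.4 by an exact permutation of animals, two-sided, which cannot go below 0.1). Context-Only spans the Fear-Recall values on both sides. The 2 Fear-Only animals had 50.7% and 47.6%, above all 3 Fear-Recall animals, and Homecage 2, at 20%, lay below the other 8 animals. These 2 differences were not tested. Over all gates the share was 39.3% ± 7.41 in Fear-Recall (n = 5), 34.1% ± 17.4 in Fear-Only (n = 4), 39.6% ± 7.88 in Context-Only (n = 5) and 29.0% ± 6.99 in Homecage (n = 3).

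The reporter transcript checks the gate within Vip cells. A reporter read was held by 222 of 306 pos members (72.5%) and 4 of 55 neg members (7.27%), pooled over animals that differ, and by 81.02% of pos and 10% of neg excitatory cells. In the 5 animals with at least 5 members in both gates, the pos share was 67.3% in Fear-Recall 2, 96.2% in Fear-Recall 3, 75.0% in Context-Only 3, 61.5% in Context-Only 4 and 12.5% in Homecage 2. The neg share was 12.5% in Context-Only 3 and 0 in the other 4 animals. The other 3 neg members with a reporter read came from animals with fewer neg members, 1 of 4 in Fear-Only 2 and 2 of 4 in Fear-Only 3, where the pos shares were 57.9% and 88.1%. Over the 5 animals the means were 62.5% ± 30.9 and 2.5% ± 5.59, higher in pos in 5 of 5 animals (exact sign-flip test, p = 0.0625, the smallest that 5 animals allow).

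No gene passed between pos and neg Vip cells of the same animals in edgeR. Counts were summed per animal and gate over 8 to 55 pos and 5 to 13 neg cells, and edgeR's quasi-likelihood test with the animal as a block called 0 of 10874 genes at an adjusted p of 0.05 (percent called 0), with 376 genes (3.46%) at an unadjusted p under 0.05. DESeq2 called 1.08% of the genes tested, and 92.3% of its calls were higher in pos. Ndufs3, a subunit of complex I of the respiratory chain (chr2:90894634-90904827, minus strand), had 718 CPM in pos and 183.96 in neg cells of Fear-Recall 2, 213.98 and 119.3 in Fear-Recall 3, 315 and 172 in Context-Only 3, 223 and 107.5 in Context-Only 4 and 749 and 210 in Homecage 2. Each pos value was above each neg value, which held for 0.855% of all genes in either direction, and the log2 difference was 1.31 ± 0.27 (SE, p = 0.000907, edgeR adjusted p = 1). Other genes of smallest p were higher in pos in 5 of 5 animals, namely the vesicle tethering gene Trappc4 (1.14 ± 0.23), the co-chaperone gene Ttc1 (1.69 ± 0.40) and the complex II subunit gene Sdhb (0.97 ± 0.24). Lower on average in pos, and in 5 of 5 animals, were the farnesyltransferase subunit gene Fnta (-1.50 ± 0.35), the transcription factor gene Nfib (-0.91 ± 0.28), the adhesion gene Flrt1 (-1.34 ± 0.41) and the microtubule linker gene Clip3 (-0.73 ± 0.23). Of these 8 genes, Ndufs3, Trappc4, Ttc1 and Fnta passed in DESeq2.

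No neuropeptide gene passed between the gates in edgeR. Of the 10 tested, which include Vip and Penk, 8 were above 0, with a median of 0.59, beside 55.9% of genes above 0 and a median of 0.14 over all genes tested. Pthlh was higher on average in pos in 5 of 5 animals (0.74 ± 0.24) and Cck in 4 of 5 (1.07 ± 0.36). Scg2, a granin gene of the immediate early list (chr1:79434669-79440120, minus strand) had 1073, 1506, 1353, 1418 and 1263 CPM in pos cells of Fear-Recall 2, Fear-Recall 3, Context-Only 3, Context-Only 4 and Homecage 2, and 740, 856, 1136, 801 and 578 CPM in the neg cells of the same animals. All 5 animals were higher in pos, the ranges overlapped through Context-Only 3, and the log2 difference was 0.71 ± 0.20 (p = 0.00534, edgeR adjusted p = 1). Vip, Calb2 and Penk sort the members, so their gate differences of 0.38 ± 0.16, -0.48 ± 0.38 and -0.38 ± 0.21 are given as a description.

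Lists of genes had the following medians in the gate comparison, and none of their members passed in edgeR. Of 46 ribosomal protein genes 45 were above 0 (median 0.38, from 0.30 to 0.52 leaving out each animal), and of 40 oxidative phosphorylation genes 34 (median 0.54, from 0.36 to 0.66), 13 of them at an unadjusted p under 0.05. Over all genes 55.9% were above 0. Immediate early genes, which are switched on within minutes of neuronal activity, were above 0 in 17 of 26 cases (median 0.45), and the median was 0.13 without Fear-Recall 3. Egr1 was higher in pos in 4 of 5 animals (0.9999 ± 0.37), and Fos in 3 of 5 (0.56 ± 0.62, and -0.063 without Fear-Recall 3). Synaptic vesicle genes had 10 of 23 above 0 (median -0.16). The summed level of 8 astrocyte markers was 31.1 to 233 CPM in pos and 19.7 to 120 CPM in neg sums, where Aqp4, Gja1 and Gfap were at 0, and the 8 excitatory markers reached at most 13.1 CPM. The 3 Pvalb markers summed to 3.55 to 349 CPM in pos and 0 to 66.4 CPM in neg, where Pvalb itself was at 0, and the 6 microglia markers to 0.658 to 64.1 CPM (median 23.6) and 0 to 56.3 CPM (median 2.21), with Cx3cr1 at 0 in both. The rule used the Pvalb markers and, among the excitatory ones, Slc17a7, Neurod2 and Neurod6, so low levels of these are partly set by it. The part of all these markers in the differences was not tested.

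Among pos Vip cells, the 3 conditions with a pos gate were compared in 1 fit of 8 sums of 13 to 59 cells (Fear-Recall 2, 3 and 4, Fear-Only 2 and 3, Context-Only 2, 3 and 4). The comparisons share the sums of each condition, so their values are not independent of each other. By their names, Fear-Recall and Context-Only may differ in fear training as well as in recall. The labels give no schedule, so these cannot be told apart in this comparison. EdgeR called 0 of 15051 genes (percent called 0) with 679 (4.51%) at an unadjusted p under 0.05, and DESeq2 called 53, 34 of them higher in Fear-Recall. The groups did not overlap for 7.75% of all genes.

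Of the 4 genes of smallest p with the higher mean in Fear-Recall, 2 were immediate early genes, and none passed in edgeR, while Dusp1 and Rufy2 passed in DESeq2. Dusp1, a phosphatase that switches off MAP kinases (chr17:26505590-26562128, minus strand), had 254, 205.8 and 615 CPM in Fear-Recall 2, 3 and 4 and 55.7, 61.6 and 88.97 CPM in Context-Only 2, 3 and 4. All 3 Fear-Recall animals stood above all 3 Context-Only animals, and the log2 difference was 2.38 ± 0.56 (p = 0.00171, edgeR adjusted p = 0.968). Junb, a subunit of the AP-1 transcription factor (chr8:84974484-84978718, minus strand), had 223.7, 466 and 451 CPM against 106, 169.2 and 85.7 CPM. These groups did not overlap either, and the difference was 1.66 ± 0.42 (p = 0.00271, adjusted p = 0.968). The 250 bases before each RefSeq start are shown because these 2 genes had the smallest p of the list, with the same motif in capitals (RefSeq, GRCm38.p6, Dusp1 chr17:26508473-26508722 and Junb chr8:84978749-84978998, both minus strand). The RefSeq start of Dusp1 lies well inside the GENCODE interval given above, which is longer, and that of Junb just outside its interval.
Dusp1: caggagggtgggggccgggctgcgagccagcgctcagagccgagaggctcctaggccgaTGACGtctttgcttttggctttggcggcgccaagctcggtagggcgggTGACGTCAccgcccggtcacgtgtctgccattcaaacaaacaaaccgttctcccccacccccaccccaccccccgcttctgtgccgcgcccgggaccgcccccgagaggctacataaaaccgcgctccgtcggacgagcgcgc
Junb: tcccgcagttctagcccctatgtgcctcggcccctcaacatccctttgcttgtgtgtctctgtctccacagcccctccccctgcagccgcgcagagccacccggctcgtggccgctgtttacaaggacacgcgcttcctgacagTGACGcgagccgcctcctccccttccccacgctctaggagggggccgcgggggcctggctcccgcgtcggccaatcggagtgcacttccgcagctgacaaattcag
The Dusp1 window has 3 matches, of which 2 overlap within a palindrome, and the first starts 191 bases before that start. The Junb window has 1 match, 106 bases before its start. The Dusp1 and Junb windows hold 68.4% and 66.4% G and C. In the list, 25 of 33 genes had windows in the RefSeq table, and 21 of their 39 windows (53.8%) held the motif, beside 17.8% of all windows. The 2 sets of windows were not matched for G and C, and a match is again a description of letters.

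Other immediate early genes were nearer to the spread between animals. Crem, a cAMP-responsive regulator, had 106, 80.5 and 88.0 CPM in Fear-Recall and 35.5, 58.1 and 25.8 CPM in Context-Only, with no overlap (1.202 ± 0.45). Jun differed by 1.04 ± 0.47 and overlapped. Fos had 485, 579 and 903 CPM against 340, 277.4 and 677 CPM, with overlap (0.60 ± 0.49, p = 0.248), and Egr1 differed by 0.37 ± 0.51. Of 30 list members tested, 26 were above 0 with a median of 0.89, and 4 had an unadjusted p under 0.05, beside a median of 0.06 and 52.7% above 0 over all genes. Leaving out each animal in turn gave medians from 0.63 to 0.93.

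Beyond that list, Hdac11, a histone deacetylase gene (chr6:91156665-91174692, plus strand), had 231, 244.2 and 174.4 CPM in Fear-Recall and 77.9, 89.4 and 80.8 CPM in Context-Only. The groups did not overlap (1.39 ± 0.34, p = 0.00233, adjusted p = 0.968), and the 2 Fear-Only animals, with 157.05 and 213.5 CPM, lay above Context-Only as well. Rufy2, an endosomal adaptor gene, differed by 2.05 ± 0.52. Lower in Fear-Recall were Imp3 (-2.64 ± 0.76), Lsm10 (-2.87 ± 0.84) and Apip (-2.37 ± 0.70), and in each of them Context-Only 2 stood far above the other animals, at 190.5, 154.3 and 126.8 CPM. Tmem141 (-1.89 ± 0.56) was higher in all 3 Context-Only animals. Cbln4 (1.58 ± 0.55) had the higher mean in Fear-Recall, and Rab3b, a GTPase of synaptic vesicles, the lower one (-1.12 ± 0.37). Gad1 helped to choose the inhibitory cells, so its difference of 0.92 ± 0.46 is given as a description. Vip sorts the members, so its difference of -0.16 ± 0.25 is given as a description.

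Ribosomal protein genes had 1 of 46 above 0 in Fear-Recall against Context-Only (median -0.51) and oxidative phosphorylation genes 6 of 40 (median -0.46). Both medians rest on Context-Only 2, without which they were 0.24 and 0.23. Members of that animal in the pos gate had a median of 3100 genes. Summed astrocyte markers were 39.99 to 233 CPM in Fear-Recall, 192 to 246 CPM in Fear-Only and 56.6 to 101 CPM in Context-Only, those of oligodendrocytes 16.8 to 108.7, 90.1 to 395 and 69.6 to 108.9 CPM, and excitatory markers stayed at or below 13.1 CPM. Low levels of the excitatory markers are partly set by the rule, which used Slc17a7, Neurod2 and Neurod6. The part of all these markers in the result was not tested.

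Fear-Recall against Fear-Only again had Dusp1 with the smallest p among genes with the higher mean in Fear-Recall. EdgeR called 0 of 15051 genes (percent called 0), 1.81% had an unadjusted p under 0.05, and DESeq2 called 32. The groups did not overlap for 17.4% of all genes, so a gap between 3 and 2 animals is common here. Dusp1 had 24.6 and 71.5 CPM in the Fear-Only animals, all below Fear-Recall (2.90 ± 0.68, p = 0.00157, edgeR adjusted p = 1). Npas4, an activity-dependent transcription factor (chr19:4984355-4990316, minus strand), had 32.4, 21.1 and 48.9 CPM in Fear-Recall and 3.72 and 4.65 CPM in Fear-Only, with 29.7, 6.49 and 20.5 CPM in Context-Only. Its Fear-Recall values lay above both Fear-Only values (3.03 ± 0.98, p = 0.0117) and overlapped Context-Only. Ppp1r15a (2.53 ± 0.70), Gadd45g (1.69 ± 0.54) and Junb (1.44 ± 0.48), all stress- or activity-induced genes, had the higher means in Fear-Recall. Cbln4 (1.85 ± 0.64) did too, and so did Gad1 (1.31 ± 0.54), given as a description because the rule used it. Hddc3 (-2.69 ± 0.69), Sept4 (-1.05 ± 0.44), Timm17b (-1.10 ± 0.47) and Thap11 (-1.07 ± 0.46) had the lower means. Of 30 immediate early genes 21 were above 0 (median 0.41, from 0.32 to 1.39 leaving out each animal, 6 at an unadjusted p under 0.05), beside a median of 0.07 over all genes.

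Eno1b, a near-identical copy of the glycolytic gene Eno1, was named by the same rule. It had 38.1, 47.8 and 64.7 CPM in Fear-Recall, 55.4 and 61.6 CPM in Context-Only 3 and 4, and 1 count each in both Fear-Only animals and in Context-Only 2. Reads of the 2 copies may have been split in counting, so the gene is uncertain and no fold is given.

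In Fear-Only against Context-Only, edgeR called 0 of 15051 genes (percent called 0), with 385 (2.56%) at an unadjusted p under 0.05, and DESeq2 called 36, 28 of them lower in Fear-Only. The groups did not overlap for 15.5% of genes. The smallest p values with the higher mean in Fear-Only were those of Hdac11 (1.16 ± 0.37), Kantr (1.54 ± 0.59), Sult2b1 (1.91 ± 0.74) and Zfp317 (1.71 ± 0.66), and with the lower mean Trp53inp2 (-1.70 ± 0.57), Zfp512 (-2.42 ± 0.84) and Mtf1 (-2.75 ± 0.98). All 7 had an edgeR adjusted p of 1. Npas4 (-2.17 ± 0.94) and Gadd45g (-1.23 ± 0.53) had the lower means in Fear-Only, whereas 16 of 30 immediate early genes were above 0 (median 0.11). Cntnap2, an adhesion gene of the axon, had 296 and 249.5 CPM in Fear-Only against 631, 399 and 621 CPM in Context-Only (-1.01 ± 0.40). Ribosomal protein genes were above 0 in 2 of 46 cases (median -0.42) and oxidative phosphorylation genes in 4 of 40 (median -0.51), and without Context-Only 2 the medians were 0.35 and 0.18.

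Homecage animals had too few Vip cells labelled pos for that fit. All Vip cells of an animal were therefore summed whatever their gate (14 to 68 cells). The sums mix the gates in different parts. Among animals with a recorded gate, the pos share ran from 57.1% in Homecage 2 to 100% in Fear-Recall 4. Cells of the other animals, among them Homecage 3 and 5, carry no single gate label, so their pos share is unknown. The part of the gate in these differences was not tested. Homecage 2, 3 and 5 serve as the shared reference of the next 3 comparisons, whose values stand side by side and are not independent. EdgeR called 0 of 14513 genes in each (percent called 0), with an unadjusted p under 0.05 for 1388 genes (9.56%) in Fear-Recall, 1037 (7.15%) in Fear-Only and 1295 (8.92%) in Context-Only. DESeq2 called 530, 337 and 525, of which 484, 307 and 482 were higher than in Homecage. The groups did not overlap for 10.2%, 9.47% and 2.96% of genes in either direction, and for 8.23%, 7.17% and 2.11% with Homecage the lower.

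Srxn1 and Efr3b stood above Homecage in every animal of the other conditions. Srxn1, which repairs oxidised peroxiredoxins (chr2:152105516-152111376, plus strand), had 31.3, 61.7 and 53.0 CPM in Homecage 2, 3 and 5. It had 85.6, 130.4, 197 and 191 CPM in Fear-Recall, 138.3, 280 and 194 CPM in Fear-Only and 212, 177, 244.2, 254 and 255 CPM in Context-Only. The lowest of these 12 values was above the highest Homecage value. The log2 differences were 1.63 ± 0.40 (adjusted p = 0.51) in Fear-Recall, 2.07 ± 0.42 (adjusted p = 0.589) in Fear-Only and 2.23 ± 0.40 (p = 2.99e-05, edgeR adjusted p = 0.325) in Context-Only. Efr3b, which holds a lipid kinase at the plasma membrane (chr12:3962554-4038915, minus strand), had 20.8, 14.2 and 15.7 CPM in Homecage. It ranged from 47.7 to 107 CPM in Fear-Recall, 48.2 to 71.8 CPM in Fear-Only and 45.3 to 73.5 CPM in Context-Only, with differences of 2.22 ± 0.48, 1.78 ± 0.49 and 1.98 ± 0.47. Cptp, a ceramide-phosphate transfer protein gene, had 1.69, 7.57 and 7.93 CPM in Homecage and differed by 3.66 ± 0.90 in Fear-Only and 3.87 ± 0.88 in Context-Only. The plot of single genes shows these animals as points.

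**Figure D3:**
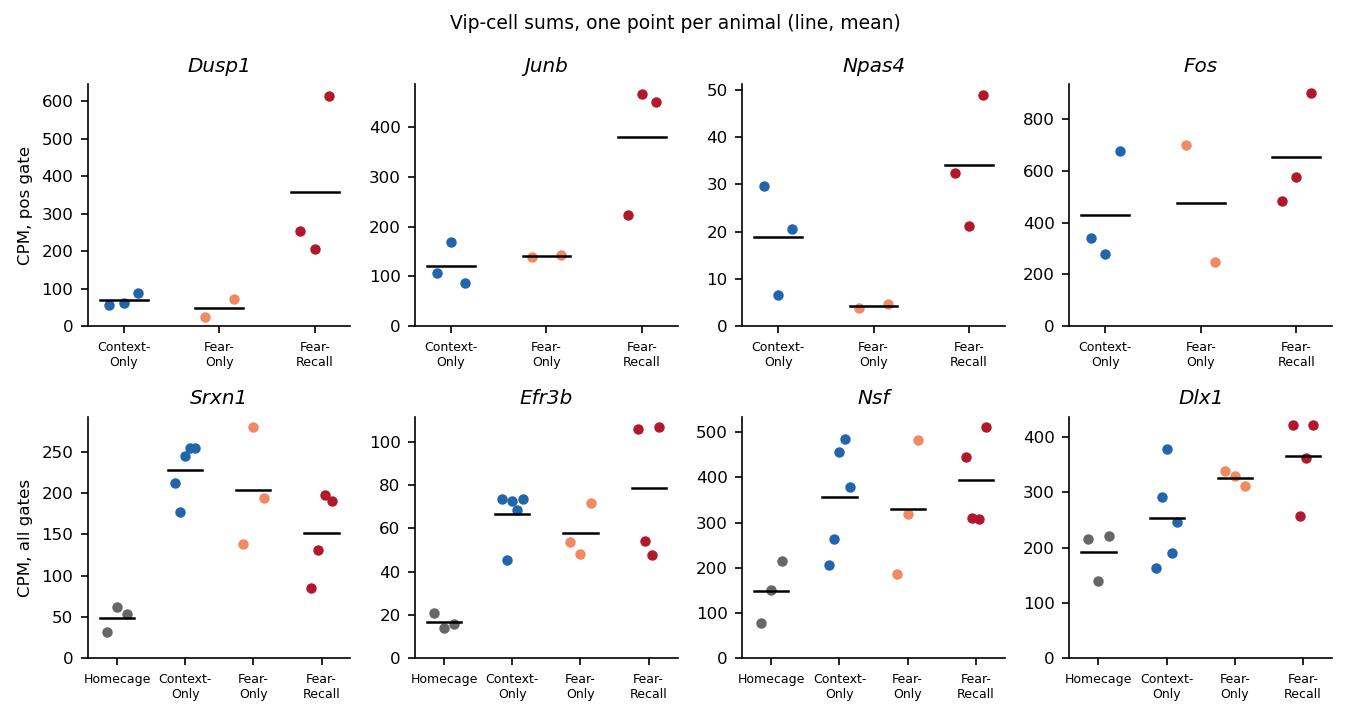
CPM (with TMM scaling) of Dusp1, Junb, Npas4 and Fos in pos Vip cells of Context-Only, Fear-Only and Fear-Recall, and of Srxn1, Efr3b, Nsf and Dlx1 in all Vip cells of the 4 conditions, with a point per animal and a line for the mean. Dusp1 and Junb are higher in each Fear-Recall animal than in each Context-Only animal, Fos overlaps, and the 3 Homecage animals are the lowest for Srxn1 and Efr3b.

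Genes named in a single one of these comparisons were as follows. In Fear-Recall the RNA transport gene Stau1 (2.80 ± 0.63) and Tmem130 (1.45 ± 0.34) had the higher means, and Timm22 (-1.93 ± 0.49), Rpl7l1 (-1.64 ± 0.42), Dtnbp1 (-2.24 ± 0.57) and Sec13 (-1.20 ± 0.31) the lower ones. In Fear-Only Papola, a poly(A) polymerase gene, was higher on average (1.92 ± 0.54), and Rab21 (-2.24 ± 0.63), Pnrc1 (-2.12 ± 0.62), Smyd3 (-2.11 ± 0.65) and Zc2hc1a (-1.37 ± 0.43) lower. In Context-Only Rexo4 was higher on average (2.20 ± 0.53), and Rnpc3 (-1.83 ± 0.47), the mitochondrial dehydrogenase gene Idh2 (-1.70 ± 0.49), Fam49a (-1.06 ± 0.32) and Asl (-1.52 ± 0.48) lower. None passed in edgeR, and all of them passed in DESeq2, as did Srxn1, Efr3b and Cptp in each comparison where they are given above.

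Synaptic and identity genes differed from Homecage by smaller amounts. Nsf, the ATPase that recycles the vesicle fusion machinery, had 444, 310.1, 307.5 and 512 CPM in Fear-Recall 1 to 4 and 78.0, 150 and 215.6 CPM in Homecage, with no overlap (1.41 ± 0.43, p = 0.00442, edgeR adjusted p = 0.51). It differed by 1.16 ± 0.45 in Fear-Only and 1.27 ± 0.42 in Context-Only, both with overlap. Vamp2, a vesicle fusion protein, differed by 1.24 ± 0.40 in Fear-Recall. Synaptic vesicle genes were above 0 in 18 of 23 cases in Fear-Recall (median 0.32), 16 of 23 in Fear-Only (0.18) and 17 of 23 in Context-Only (0.22), beside 0.14, 0.07 and 0.14 over all genes. The interneuron transcription factor gene Dlx1 had the higher mean in Fear-Recall (0.93 ± 0.34) and Dlx5 the lower one (-0.93 ± 0.33). Tac2 had 4983, 3645 and 3515 CPM in Homecage and 2742, 1416 and 1708 CPM in Fear-Only, with no overlap (-1.05 ± 0.41, adjusted p = 0.69), and it differed by -0.79 ± 0.37 in Fear-Recall. Cck differed by -1.43 ± 0.47 in Fear-Only with overlap, since Homecage 2 had 450.2 CPM and Homecage 5 2037 CPM. Prox1 (0.77 ± 0.36) had the higher mean and Nrxn3, a synaptic adhesion gene (-0.98 ± 0.32), the lower mean in Context-Only. Vip sorts the members, so its differences of -0.30 ± 0.18, -0.06 ± 0.19 and -0.22 ± 0.17 in the 3 comparisons are given as a description.

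Immediate early genes were above 0 in 19 of 31 cases against Homecage in Fear-Recall (median 0.85, from 0.38 to 1.07 leaving out each animal, and 0.01 with clear members only), 14 of 31 in Fear-Only (median -0.23) and 14 of 31 in Context-Only (median -0.05). Ribosomal protein genes were above 0 in 0 of 46 cases in Fear-Recall (median -0.58), 0 of 46 in Fear-Only (-0.47) and 8 of 46 in Context-Only (-0.35). The Context-Only median was 0.01 without Homecage 2. With clear members only the 3 medians were -0.08, 0.12 and 0.38. In that setting, also for the immediate early genes above, Homecage 5 alone was the reference. Oxidative phosphorylation genes were above 0 in 5 of 40 (median -0.59), 5 of 40 (-0.44) and 13 of 40 cases (-0.17, and 0.22 without Homecage 2). Summed astrocyte markers were 16.4 to 38.5 CPM in Homecage, with Aqp4, Gja1 and Gfap at 0, 22.6 to 220 CPM in Fear-Recall, 134.3 to 186.7 CPM in Fear-Only and 54.0 to 334 CPM in Context-Only. Summed microglia markers were 0.504 to 10.95 CPM in Homecage, with Cx3cr1, C1qa, C1qb and P2ry12 at 0, 17.4 to 23.8 CPM in Fear-Recall, 22.8 to 42.8 CPM in Fear-Only and 6.07 to 54.0 CPM in Context-Only, and the 3 that were tested were above 0 in each comparison. Oligodendrocyte markers were 11.9 to 119.002 CPM in Homecage, with Mog and Mag at 0, 16.8 to 106 CPM in Fear-Recall, 62.4 to 340 CPM in Fear-Only and 60.0 to 395 CPM in Context-Only, where all 5 tested were above 0. The part of these markers in the results was not tested. The plot of list medians gives the 7 comparisons together.

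**Figure D4:**
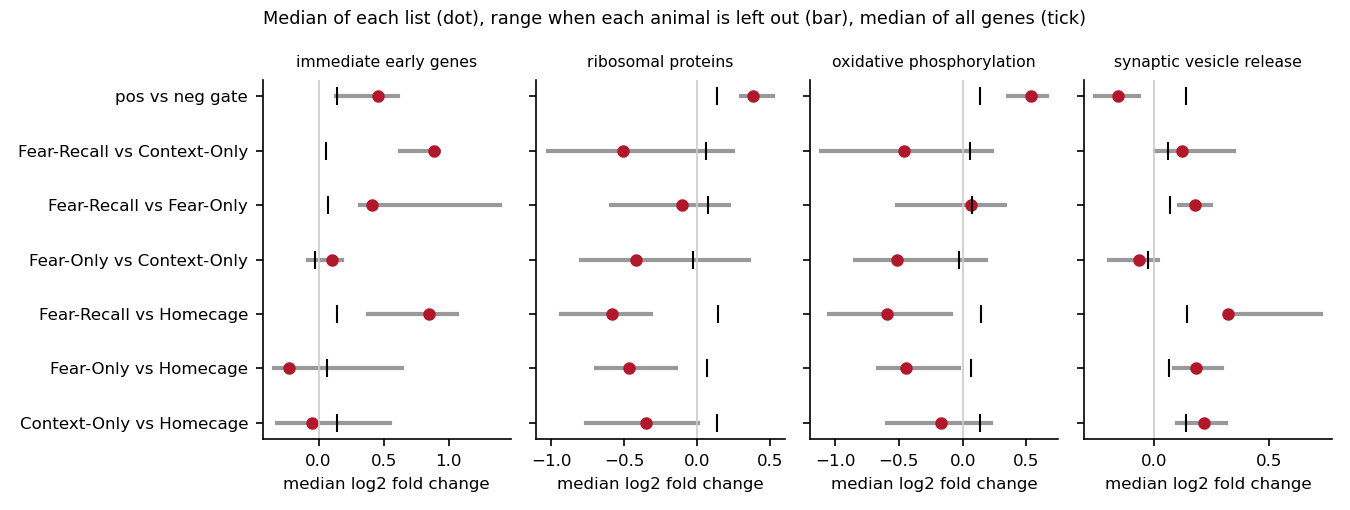
Median log2 difference of immediate early, ribosomal protein, oxidative phosphorylation and synaptic vesicle genes in the 7 comparisons of Vip cells, where the dot is the list median, the bar its range when each animal is left out and the tick the median of all genes tested. Immediate early genes lie above all genes in Fear-Recall against Context-Only (0.89 beside 0.06), and the bars of ribosomal and oxidative phosphorylation genes cross 0 in that comparison.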

How the data were processed

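Single cells of the medial prefrontal cortex were measured by Smart-seq2. The deposited table holds read counts per gene and cell, made by the authors. Bowtie 0.12.2 and the builds mm10 and mm8 are listed in the submitters' processing notes. How reads were counted per gene is not stated there. The reporter was left out of library sizes and tests, which left 23354 genes. Members, gene lists and comparisons were chosen with earlier results of these data known. Cells were sorted singly into plates, and no doublet caller was run.

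Counts of members were summed per animal (at least 10 cells, or 5 per gate) and tested with edgeR 4.0.16 (TMM, quasi-likelihood, filterByExpr with minimum count 10 and total 15) in R 4.3.3, and p-values were adjusted by Benjamini and Hochberg over all genes of a fit (threshold 0.05). DESeq2 1.42.0 was an alternative. The steps were tested on simulated data. CPM of single genes in comparisons carries TMM scaling. Sums held 4306435 to 59034985 counts. The gate comparison is paired within animals. In the pos comparisons, whose labels share set numbers, 7 of 7 same-numbered pairs of sums deviated together (correlation 0.13 to 0.42). Correlation, thinning and exact tests used Python 3.11.15 with scipy 1.17.1.

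Named genes were the 4 of smallest p per direction at a mean log2 CPM of at least 5 where none passed, the 2 to 4 of smallest p of a described list, the list members in the description of the type, the 20 largest ratios and the 6 genes most like Vip. Fos, Egr1, Vip, Calb2, Penk, Cck and Tac2 were added. Predicted genes were not named, and some list members are not reported here. Alternatives were other scaling, no filter, a set block, clear members, a higher cell minimum and leaving out each animal.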

Additional observations from a re-analysis of the deposited data

Results flagged for a closer look

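Of 100 groups of animals of different sizes, 10 had a sample set apart from the rest, and each of these 10 held 5 animals. The gap was large beside the range of the group (Dixon's criterion), where chance gives about 1 in 20 for normally distributed values. Whether these CPM values and shares are so distributed was not tested. In the neg gate, the share of Vip cells with a reporter read was 12.5% in Context-Only 3 and 0 in the other 4 animals. With the others at 0, any value above 0 would be set apart, and this one rests on 1 of 8 members. Homecage 2 stood apart in 3 groups. Its pos Vip cells had 897 CPM of Trappc4, against 230.5 to 365 CPM in the other animals, and 652 CPM of the ribosomal protein gene Rpl34, against 72.5 to 230.3 CPM. Its neg cells had 337 CPM of Rpl34, against 64.8 to 129.8 CPM. In the neg cells of Context-Only 3, Cck was at 833 CPM, against 139 to 319.6 CPM.

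In the sums over all gates, 5 Context-Only values stood apart. Efr3b was low in Context-Only 3, at 45.3 CPM against 68.6 to 73.5 CPM. Tmem130 was at 1020 CPM in Context-Only 4 against 530.4 to 563.5 CPM, and Prox1 at 223 CPM in the same animal against 150 to 167.1 CPM. Papola was at 177 CPM in Context-Only 5 against 63.8 to 94.1 CPM. Tac2 was at 4837 CPM in Context-Only 2 against 1500 to 2445 CPM.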

How the results depend on the processing

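The share of Vip cells among inhibitory cells, 2.94 points higher in pos, was -1.42 points with clear members only, and leaving out single animals gave values from -0.58 (without Fear-Only 3) to 5.99 points (without Context-Only 4). DESeq2 in place of edgeR called 1.08% of genes tested in the gate comparison, 53, 32 and 36 genes in the pos comparisons and 530, 337 and 525 against Homecage, where edgeR called 0. Clear members only gave 78, 81 and 100 edgeR calls against Homecage, where only Homecage 5 kept 10 cells or more and is assumed to vary like the other groups. Leaving out single animals gave from 0 to 1 call in Fear-Recall against Fear-Only and in Fear-Only against Context-Only (1 each without Context-Only 2), and from 0 to 2, 0 to 1 and 0 to 2 against Homecage (2, 1 and 2 without Homecage 3). Fos in the gate comparison ranged from -0.063 (without Fear-Recall 3) to 1.10 (without Homecage 2). Dtnbp1 in Fear-Recall against Homecage was 11.59 (edgeR adjusted p = 0.0306) with clear members only, and Rnpc3 in Context-Only against Homecage 1.45 (adjusted p = 0.614). The cause of these changes was not tested.

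With the set number as a replicate block, edgeR called 0 genes in each of the 6 comparisons between conditions, as without it, so the pairing changed no call. Dropping the animal block of the gate comparison also left 0. In the sums over all gates, 15 of 18 same-numbered pairs deviated together. For 95 named genes, 1597 alternative values were computed, of which 1556 stayed on the same side of the threshold, 38 passed it and 3 changed sign. DESeq2 gave 34 of those 38, so that 34 of the 95 results passed in it. A minimum of 10 cells per gate could not be fitted. Precision is limited by the neg sums of 5 to 13 cells and by the 3 Homecage animals.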
